A study of Mus musculus with 16 samples.

Results

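The aminoacyl-tRNA synthetase genes of the mouse were followed in 4T1 and 67NR mammary carcinoma cells with and without a cPLA2α inhibitor. The members were 36 genes chosen by their names, 20 for cytosolic enzymes and 16 whose symbols end in ars2 for mitochondrial enzymes, among 33072 genes of the count table. All 36 symbols were found by their Ensembl identifiers, and Mars1 carries the symbol Mars in the annotation used.

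Aminoacyl-tRNA synthetases join each amino acid to its tRNA, the step that sets the genetic code, and they therefore feed every ribosome with charged tRNA. The cytosolic enzymes serve the translation of nuclear mRNAs, and part of them sit together in a multi-synthetase complex held by the scaffold proteins Aimp1, Aimp2 and Eef1e1. A separate set, encoded in the nucleus and imported, charges tRNAs for the few proteins of the respiratory chain that are made inside mitochondria. Kars and Gars each give rise to both a cytosolic and a mitochondrial enzyme. Several cytosolic synthetase genes are known targets of Atf4, the transcription factor of the amino acid response, and so are Asns, Trib3, Chac1 and Ddit3.

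Both cell lines come from the same mouse mammary tumor, and 4T1 is metastatic while 67NR is not. Each line was grown in culture and given either the DMSO vehicle or the cPLA2α inhibitor CIX at 15 µM for 24 h, with 4 samples in each of the 4 groups and 16 in all. Each line is 1 established line, so that a difference between 4T1 and 67NR is a difference between these lines and not between metastatic and non-metastatic tumors in general. The values below are in CPM, estimated counts relative to the total of the sample after TMM scaling, and are given in the order of samples 1, 5, 9 and 13 for vehicle treated 67NR, 2, 6, 10 and 14 for 67NR with CIX, 3, 7, 11 and 15 for vehicle treated 4T1 and 4, 8, 12 and 16 for 4T1 with CIX. A gene was called when its Benjamini-Hochberg adjusted p-value, over all genes tested with limma-voom, was below 0.001, the threshold of the study. p-values measure the spread between the 4 samples of a group, and log2 fold changes are given with their standard error (SE).

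The total estimated count of a sample ranged from 21715700 to 29450629, and 3 counts correspond to between 0.102 and 0.138 CPM, a floor for counting error alone. Samples of a group differed beyond sampling noise, with chi-square values per gene of at least 18.7, so that all 16 entered as separate samples. Sample 13 of the vehicle treated 67NR cells was the farthest from its group, with a root mean square log2 difference over genes of 0.493 beside 0.293 to 0.449 for the other 15. Sample 4 of the CIX treated 4T1 cells stood apart in the genes of the amino acid response, with Ddit3 at 39.1 CPM beside 134 to 224 CPM in the other 3, and sample 2 of the CIX treated 67NR cells stood apart in Lars2. Of 7 epithelial markers, 5 were at 1 CPM or more in vehicle treated 4T1 cells (summed level 2922 to 3257 CPM) and 1 in vehicle treated 67NR cells (1.84 to 5.67 CPM), with Epcam at a mean of 312 CPM in 4T1 and 0.112 CPM in 67NR. The basal keratin Krt5 was below 1 CPM in all groups. Of 8 mesenchymal markers, 7 were at 1 CPM or more in vehicle treated 67NR (6157 to 7046 CPM) and 4 in vehicle treated 4T1 (2525 to 3273 CPM). The endothelial markers summed to at most 2.68 CPM. Of the leukocyte markers, Adgre1 and Cd3e stayed below 1 CPM in all groups, whereas Cd68 had a mean of 68.3 CPM with vehicle and 167 CPM with CIX in 4T1 and of 8.82 and 37.3 CPM in 67NR, and its part in the results was not tested. In such bulk samples fewer cells of a kind and less RNA per cell cannot be told apart.

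Compared per length, the cytosolic synthetase mRNAs were the more abundant class. TPM was approximated with 1 length per gene, the mean over its annotated transcripts. In vehicle treated 4T1 cells the cytosolic members ranged from Farsb at 58.5 TPM to Qars at 455 TPM, and in vehicle treated 67NR cells from Farsa at 47.9 TPM to Cars at 255 TPM. The mitochondrial members without Lars2 ranged in vehicle treated 4T1 from Mars2 at 0.718 TPM to Iars2 at 71.5 TPM, and in 67NR from Mars2 at 0.954 TPM to Tars2 at 50.6 TPM. Lars2, the mitochondrial leucyl-tRNA synthetase, lay far above its class, with a mean of 1454 TPM in vehicle treated 4T1 and 1236 TPM in vehicle treated 67NR cells. The summed level of the mitochondrial class is therefore given with and without it. Lars2 was at 3841 CPM in sample 2 of the CIX treated 67NR cells and between 1593 and 2429 CPM in the other 15 samples, and its log2 fold change between CIX and vehicle in 67NR was 0.43 (SE 0.17, adjusted p = 0.119).

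The summed level of the 20 cytosolic members was higher in 4T1 than in 67NR under both treatments. It was 2780.1 ± 110.4 TPM (SD, n = 4) in vehicle treated 67NR, 3219.6 ± 324 in CIX treated 67NR, 4338 ± 221 in vehicle treated 4T1 and 5147 ± 669.9 in CIX treated 4T1 cells. The highest of the 8 67NR samples, at 3611 TPM, lay below the lowest of the 8 4T1 samples, at 4122 TPM. Between CIX and vehicle in 4T1 the groups overlapped, since CIX sample 4 was at 4169.9 TPM while the vehicle samples reached 4641 TPM. In 67NR the groups did not overlap, with vehicle samples up to 2892 TPM and CIX samples from 2923 TPM. The other 15 mitochondrial members summed to 329 ± 13.9, 326 ± 17.7, 292 ± 33.9 and 327 ± 23.5 TPM in the same order, so that here the ranges of all groups overlapped. With Lars2 the mitochondrial sum was 1565 ± 234, 2016 ± 403, 1746 ± 40.9 and 1696 ± 38.6 TPM. The ratio of the cytosolic sum to the mitochondrial sum without Lars2 was 8.45 ± 0.0751 in vehicle treated 67NR, 9.92 ± 1.27 in CIX treated 67NR, 15.0 ± 1.51 in vehicle treated 4T1 and 15.9 ± 3.04 in CIX treated 4T1 cells. With Lars2 included the ratio was 1.81 ± 0.262, 1.65 ± 0.365, 2.48 ± 0.0993 and 3.04 ± 0.433 in the same order. These sums are descriptions and were given no test.

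**Figure D1:**
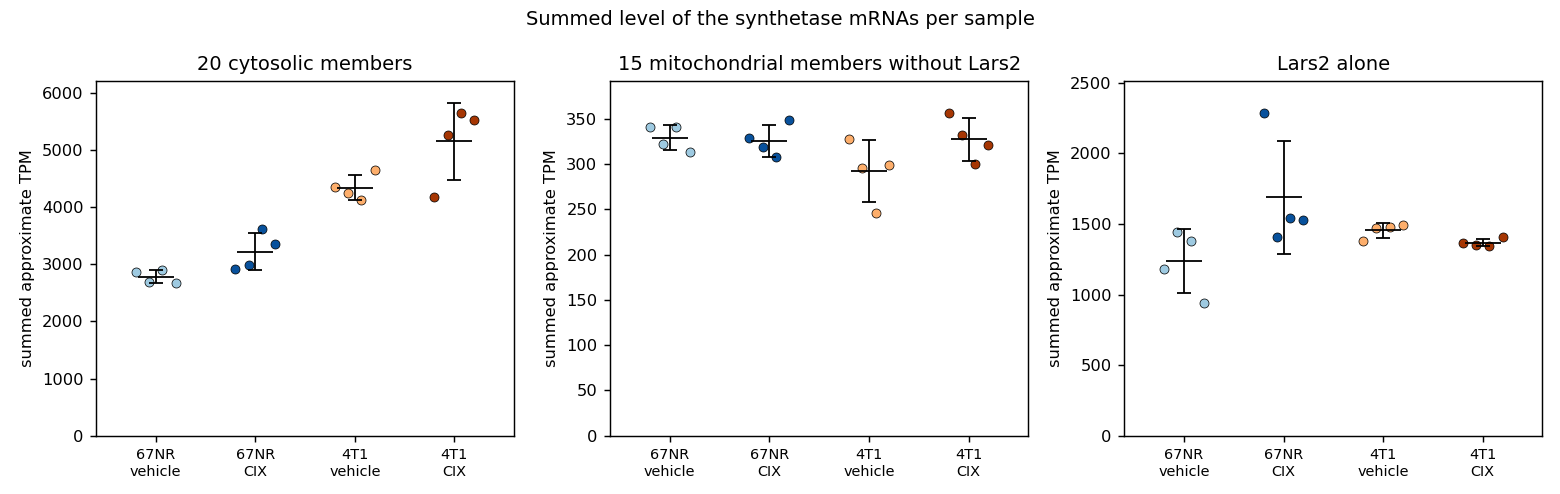
Summed approximate TPM per sample (y axis) of the 20 cytosolic members, of the 15 mitochondrial members without Lars2 and of Lars2 alone, by group (x axis). Points are samples, and bars give the mean and SD of 4 samples. The cytosolic sum was at most 3611 TPM in 67NR and at least 4122 TPM in 4T1 samples.

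Between the vehicle treated lines, 12 of the 20 cytosolic members were called higher in 4T1 and 0 lower, and of the 15 mitochondrial members tested 1 was called higher and 4 lower, while 20.4% of the 11059 genes tested were called higher and 19.6% lower. By edgeR the cytosolic and mitochondrial members together gave 12 higher and 4 lower, and by DESeq2 14 and 8, while the shares of all genes are those of limma-voom. The median log2 fold change was 0.59 for the cytosolic members, -0.57 for the mitochondrial members and -0.01 for all genes tested. Mars2, the mitochondrial methionyl-tRNA synthetase, was the only member below the filter on low values, with group means between 4.23 and 8.60 CPM and a mean annotated transcript length of 11294 bases, which lowers its approximate TPM. The cytosolic members called higher were Iars, Qars, Eprs, Kars, Tars, Dars, Sars, Gars, Nars, Farsa, Vars and Rars, with log2 fold changes from 0.44 for Rars to 1.27 for Iars. The mitochondrial Nars2, for asparagine, was higher by 0.94 (SE 0.16, adjusted p = 0.000587), and Ears2, Tars2, Hars2 and Aars2 had log2 fold changes of -1.45, -1.03, -0.96 and -0.57. With 1 sample omitted, Rars, Aars2 and Nars2 were called in 1, Tars2 in 3, Hars2 in 4 and Farsa in 6 of 8 fits, with adjusted p-values up to 0.00406, 0.00694, 0.00227, 0.00125, 0.00137 and 0.0014, and the other 11 in all 8. The lowest count of members called was 11, without vehicle sample 7 of 4T1.

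Iars, the isoleucyl-tRNA synthetase (ENSMUSG00000037851, chromosome 13 from 49682100 to 49734267 in GRCm38, plus strand), was at 75.3, 87.0, 88.0 and 104 CPM in vehicle treated 67NR and at 200.2, 194, 229 and 225 CPM in vehicle treated 4T1 cells. Every 4T1 sample was above every 67NR sample, and the log2 fold change was 1.27 (SE 0.11, 95% interval 1.01 to 1.53, adjusted p = 1.09e-05, n = 4 and 4, limma-voom). A share of 14.7% of its 31-base words occurs in another gene, mostly the gene model Gm4849, so that part of its reads could be divided between both.

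Qars, the glutaminyl-tRNA synthetase (ENSMUSG00000032604, chromosome 9, 108507706 to 108515941, plus strand), was at 149, 162, 156 and 172 CPM in vehicle treated 67NR and at 351, 362, 398 and 345 CPM in vehicle treated 4T1. The groups did not overlap, and the log2 fold change was 1.19 (SE 0.08, adjusted p = 1.77e-06 by limma-voom).

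Eprs, a single protein that charges tRNA with glutamate or proline (ENSMUSG00000026615, chromosome 1, 185363044 to 185428360, plus strand), was at 148, 145, 171 and 177 CPM in vehicle treated 67NR and at 392, 319, 319 and 418 CPM in vehicle treated 4T1. All 4T1 samples were higher, by 1.18 on the log2 scale (SE 0.13, adjusted p = 3.51e-05 by limma-voom). Kars, the lysyl-tRNA synthetase (ENSMUSG00000031948, chromosome 8, 111993443 to 112011323, minus strand), was at 168, 175, 174 and 200.1 CPM in vehicle treated 67NR and at 352, 416, 437 and 359 CPM in vehicle treated 4T1 cells. Again the groups were apart, and the log2 fold change was 1.13 (SE 0.10, adjusted p = 8.68e-06 by limma-voom).

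Ears2, the mitochondrial glutamyl-tRNA synthetase (ENSMUSG00000030871, chromosome 7, 122037213 to 122067263, minus strand), went the other way. It was at 21.9, 23.2, 22.7 and 16.5 CPM in vehicle treated 67NR and at 10.1, 7.04, 6.27 and 7.66 CPM in vehicle treated 4T1. All 4T1 samples were lower, with a log2 fold change of -1.45 (SE 0.17, adjusted p = 6.8e-05 by limma-voom). The calls of these 5 members held whichever of the 8 samples was omitted.

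**Figure D2:**
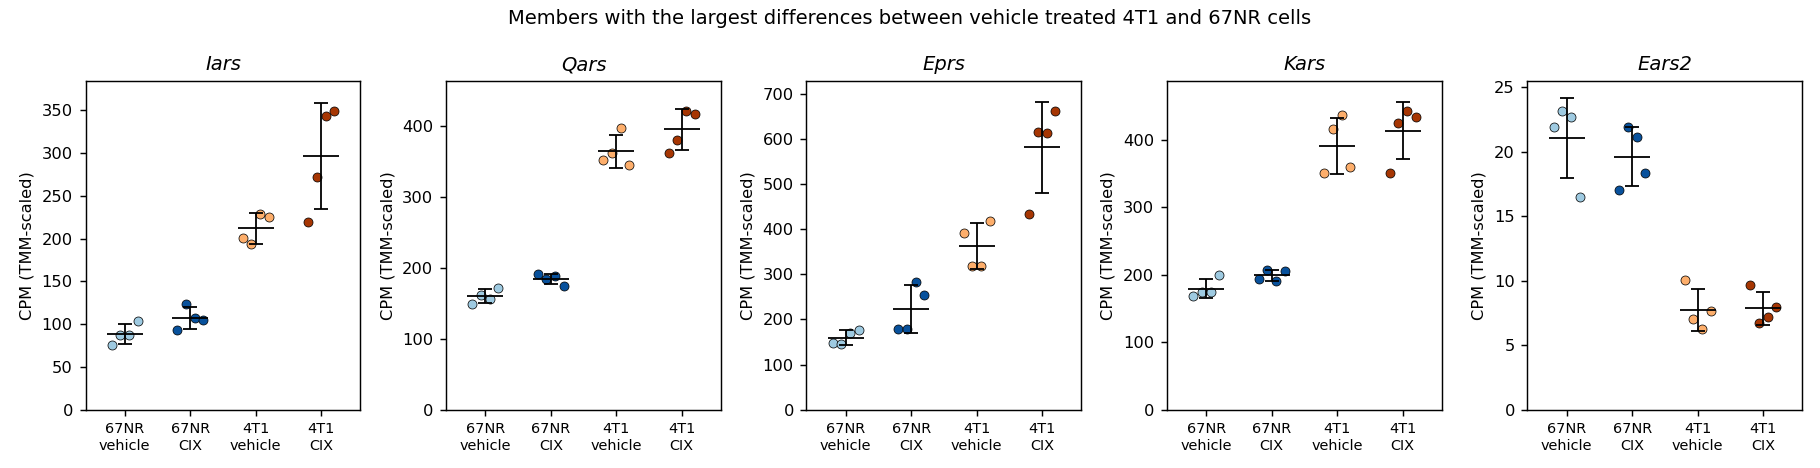
CPM per sample (y axis) of Iars, Qars, Eprs, Kars and Ears2 by group (x axis). Points are samples, and bars give the mean and SD of 4 samples. Ears2 had at least 16.5 CPM in every 67NR sample and at most 10.1 CPM in every 4T1 sample, and the 4 cytosolic members were higher in every 4T1 sample than in any 67NR sample of the same treatment.

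The multi-synthetase complex holds Lars, Iars, Mars1, Qars, Rars, Kars, Dars and Eprs. Of these 8 members 6 were called higher in vehicle treated 4T1 cells, beside 20.4% of all genes, with a median of 0.98 over all 8, and of the 12 cytosolic members outside the complex 6 were called higher, with a median of 0.43. Lars and Mars1 were the complex members with a negative log2 fold change, -0.68 (SE 0.13, adjusted p = 0.00148) and -0.13 (SE 0.10, adjusted p = 0.288). Among the scaffold proteins, Eef1e1 was higher in 4T1 by 1.23 (SE 0.09, adjusted p = 3.25e-06), and Aimp1, which was not called, was at 99.5, 119, 109 and 415 CPM in vehicle treated 67NR and at 38.9, 44.3, 83.8 and 34.4 CPM in vehicle treated 4T1 (-1.68, SE 0.49, adjusted p = 0.0124). The other cytosolic members that were not called were Aars, Cars, Farsb, Hars, Wars and Yars, between -0.32 and 0.36. The mitochondrial members that were not called ranged from Rars2 at -1.13 (SE 0.24, adjusted p = 0.0022) to Iars2 at 0.67 (SE 0.12, adjusted p = 0.00105). Iars2 shares 23.5% of its words with the antisense strand of another gene, mostly Rab3gap2, Cars2 8.11% (mostly Naxd) and Fars2 9.81% (mostly Nrn1). The kit kept the strand, but whether the counting used it is not given in the sources used here.

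Between the CIX treated lines, 8 of the 20 cytosolic members were called higher in 4T1 and 0 lower, and of 15 mitochondrial members 2 were called higher (Iars2 and Fars2) and 2 lower (Ears2 and Hars2), while 18.0% of the 10954 genes tested were called higher and 16.4% lower. The median log2 fold change was 0.62 for the cytosolic, -0.09 for the mitochondrial members (-0.14 without CIX sample 4 of 4T1) and -0.01 for all genes tested. The cytosolic members called were Iars, Eprs, Vars, Qars, Kars, Gars, Farsa and Dars, from 0.61 for Dars to 1.42 for Iars (SE 0.15, adjusted p = 2.79e-05). All 8 were among the 12 called under vehicle, and Vars went from 0.50 (SE 0.07) under vehicle to 1.23 (SE 0.07) under CIX. With 1 sample omitted, Gars and Fars2 were each called in 1 of 8 fits (adjusted p up to 0.00293 and 0.00243). Without CIX sample 4 of 4T1, 13 cytosolic members were called higher, and 2 mitochondrial members were called higher and 3 lower. Over the 8 fits with 1 sample left out, 2886 to 4135 genes were called in all, so that the shares above are not those of that fit. Both line comparisons rest on different samples.

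**Figure D3:**
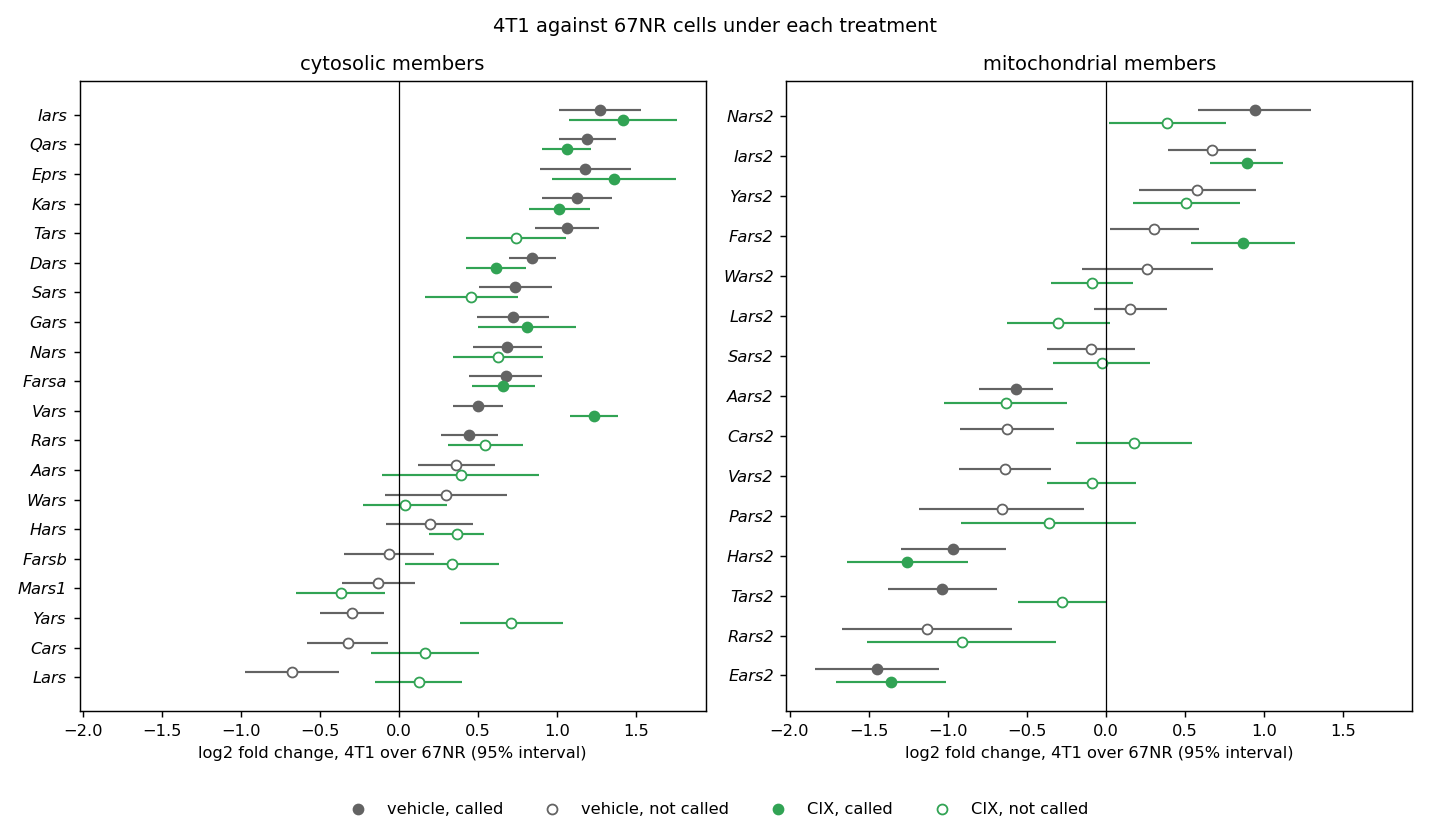
Log2 fold change of 4T1 over 67NR (x axis) for each of the 35 members tested (y axis), under vehicle and under CIX. Points are limma-voom estimates, lines their 95% intervals, and filled points passed an adjusted p of 0.001. Cytosolic members lie mostly to the right of 0 (medians 0.59 and 0.62), and mitochondrial members on both sides (medians -0.57 and -0.09).

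In 4T1 cells 4 synthetase mRNAs rose with CIX, Lars, Yars and Vars of the cytosolic class and Tars2 of the mitochondrial class. That is 3 of 20 cytosolic and 1 of 15 mitochondrial members, with 0 called lower, while 5.32% of the 11680 genes tested were called higher and 3.95% lower. edgeR called 3 higher and 0 lower, and DESeq2 called 8 higher and 1 lower. The shares of all genes here are those of limma-voom, and DESeq2 called more genes in all, so that they are no measure for its counts. The median log2 fold change was 0.32 for the cytosolic members, 0.11 for the mitochondrial members and -0.01 for all genes tested. The summed mesenchymal markers were at 2525 to 3273 CPM with vehicle and at 4389 to 5296 CPM with CIX in 4T1, without overlap, and their part in these results was not tested. At an adjusted p below 0.05, 7 cytosolic members were higher and 1 lower, and 3 mitochondrial members were higher and 2 lower, beside 21.9% of all genes higher and 20.7% lower.

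Vars, the valyl-tRNA synthetase (ENSMUSG00000007029, chromosome 17, 35000987 to 35016322, plus strand), was at 389, 353.8, 412 and 371 CPM with vehicle and at 663, 648, 702 and 669.7 CPM with CIX in 4T1. All CIX samples were above all vehicle samples, and the log2 fold change was 0.77 (SE 0.07, 95% interval 0.61 to 0.93, adjusted p = 0.000106, limma-voom). It was the member with the smallest spread of the 4, and its call held whichever of the 8 samples was omitted (adjusted p from 0.000269 to 0.000767).

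Lars, the cytosolic leucyl-tRNA synthetase, which also serves as a leucine sensor of mTORC1 (ENSMUSG00000024493, chromosome 18, 42202298 to 42262194, minus strand), was at 84.4, 66.1, 64.1 and 91.6 CPM with vehicle and at 143, 165, 170.1 and 203 CPM with CIX. The groups were apart, and the log2 fold change was 1.11 (SE 0.15, 95% interval 0.78 to 1.45, adjusted p = 0.000522, limma-voom). In 67NR cells Lars was at 128, 115, 131 and 111 CPM with vehicle and at 136, 135, 179 and 161 CPM with CIX, so that the level of CIX treated 4T1 cells overlapped with that of CIX treated 67NR cells, while vehicle treated 4T1 cells lay below all 67NR samples. The rise of Lars with CIX and its lower level under vehicle share the vehicle treated 4T1 samples.

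Yars, the tyrosyl-tRNA synthetase (ENSMUSG00000028811, chromosome 4, 129189760 to 129219607, plus strand), was at 79.6, 67.8, 81.8 and 77.1 CPM with vehicle and at 115, 169, 199 and 173 CPM with CIX. The lowest CIX sample was sample 4, still above all vehicle samples, and the log2 fold change was 1.03 (SE 0.16, 95% interval 0.67 to 1.39, adjusted p = 0.000983, limma-voom). Tars2, the mitochondrial threonyl-tRNA synthetase (ENSMUSG00000028107, chromosome 3, 95739976 to 95760206, minus strand), was at 37.5, 25.1, 22.6 and 24.0 CPM with vehicle and at 54.2, 58.9, 53.9 and 59.1 CPM with CIX. All CIX samples were higher, by 1.03 on the log2 scale (SE 0.15, 95% interval 0.68 to 1.38, adjusted p = 0.000856, limma-voom), and its cytosolic counterpart Tars had a log2 fold change of -0.15 (SE 0.15, adjusted p = 0.444).

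**Figure D4:**
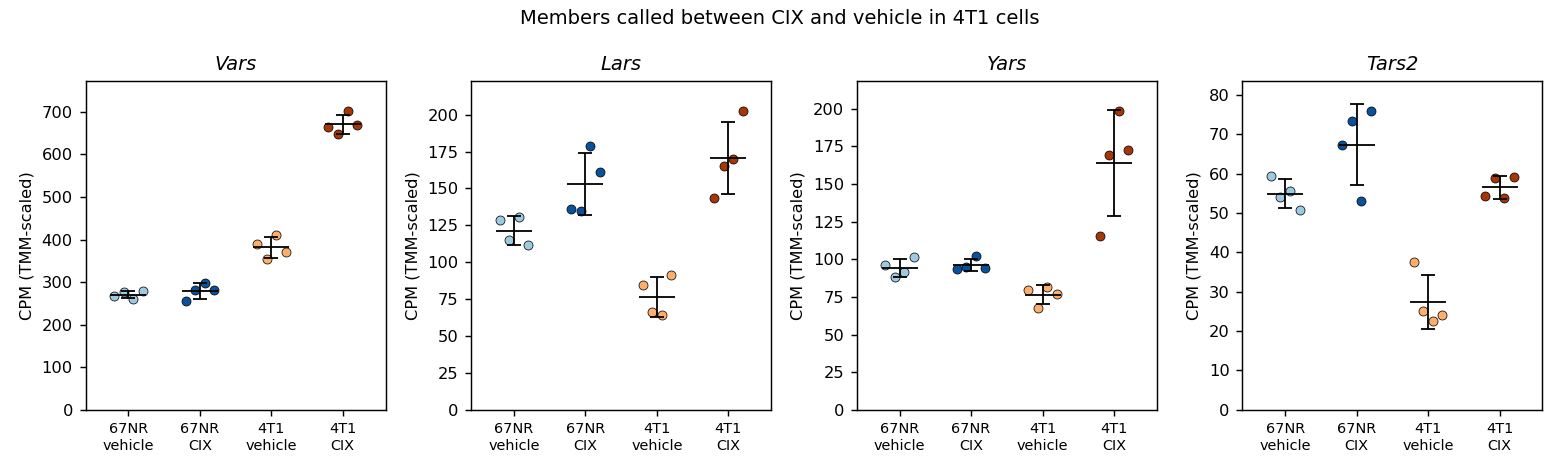
CPM per sample (y axis) of Vars, Lars, Yars and Tars2 by group (x axis). Points are samples, and bars give the mean and SD of 4 samples. In 4T1 cells every CIX sample lies above every vehicle sample for each gene, and in 67NR cells the Vars, Yars and Tars2 groups overlap.

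The calls of Lars, Yars and Tars2 lay near the threshold. When 1 of the 8 samples was left out, Lars was called in 2 (without CIX sample 4 or vehicle sample 15), Yars in 1 (without CIX sample 4) and Tars2 in 1 (without vehicle sample 3) of 8 fits, with adjusted p-values up to 0.00261, 0.00455 and 0.00415 and log2 fold changes of at least 1.02, 0.92 and 0.94. The count of members called was 1 without vehicle sample 7 or 11 or CIX sample 8, 12 or 16, and 2 without vehicle sample 3 or 15. Without CIX sample 4 the members called were Cars, Lars, Vars, Yars and Fars2, 5 in all, while 268 to 972 genes were called over the 8 fits with 1 sample left out. The mitochondrial median was then -0.02 and the cytosolic median 0.44. Cars, for cysteine, was at 186, 166, 194 and 177 CPM with vehicle and at 207, 309.5, 355 and 318 CPM with CIX, where sample 4 was the lowest (log2 fold change 0.65, SE 0.15, adjusted p = 0.00846). Fars2, the mitochondrial phenylalanyl-tRNA synthetase, was at 14.1, 15.1, 15.0 and 15.0 CPM with vehicle and at 19.0, 26.7, 29.2 and 27.6 CPM with CIX, again with sample 4 the lowest (0.73, SE 0.15, adjusted p = 0.00472). The most negative values were those of Nars2 at -0.77 (SE 0.19, adjusted p = 0.00999) and Hars2 at -0.54 (SE 0.15, adjusted p = 0.0165).

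In 67NR cells no member was called after CIX, where 0.181% of the 11583 genes tested were called higher and 0.207% lower. The count was 0 of 35 with limma-voom and with edgeR, and DESeq2 called 1 higher (Sars) and 2 lower (Hars and Cars2). DESeq2 called more genes in all than limma-voom, to which these shares belong. At an unadjusted p below 0.05, 17 members passed with limma-voom, 13 higher and 4 lower, beside 16.0% of all genes higher and 16.9% lower. The summed mesenchymal markers were at 6157 to 7046 CPM with vehicle and at 9308 to 10116 CPM with CIX in 67NR, also without overlap, and their part was not tested. At an adjusted p below 0.05, 3 cytosolic members were higher and 1 lower, and 1 mitochondrial member was lower, while 8.50% of all genes were higher and 9.25% lower. The median log2 fold change was 0.18 for the cytosolic members, -0.11 for the mitochondrial members and -0.01 for all genes tested, and the mitochondrial median was -0.05 without CIX sample 2 and -0.07 without vehicle sample 13. Sars, the seryl-tRNA synthetase, was at 256, 241, 234 and 289 CPM with vehicle and at 384, 403, 445 and 395 CPM with CIX, so that the groups were apart (0.66, SE 0.09, adjusted p = 0.00219). Cars2, the mitochondrial cysteinyl-tRNA synthetase, was at 34.4, 28.0, 38.0 and 31.7 CPM with vehicle and at 22.9, 21.04, 17.03 and 22.05 CPM with CIX, apart in the other direction (-0.68, SE 0.12, adjusted p = 0.00772).

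The test of the difference between the responses called Vars and Yars. Of the 20 cytosolic members 2 were called with a higher response in 4T1 than in 67NR and 0 with a lower one, and of 15 mitochondrial members 0 in either direction, beside 4.80% of the 12636 genes tested with a higher and 3.05% with a lower response. edgeR called the same 2 members, and DESeq2, which called more genes in all than limma-voom, called Lars in addition. In 67NR cells Vars was at 266, 276, 261 and 278 CPM with vehicle and at 254, 282, 299 and 282 CPM with CIX, where the groups overlapped. The log2 fold change was 0.03 there (SE 0.07, 95% interval -0.12 to 0.18) against 0.77 in 4T1, and the difference was 0.74 (SE 0.09, adjusted p = 2.73e-05, limma-voom). Yars was at 96.4, 88.0, 91.2 and 102 CPM with vehicle and at 93.6, 94.6, 102 and 94.5 CPM with CIX in 67NR, overlapping too. The log2 fold change was 0.02 (SE 0.07, 95% interval -0.15 to 0.18), and the difference between the lines was 1.01 (SE 0.18, adjusted p = 0.00065, limma-voom).

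The call of Vars held whichever of the 16 samples was omitted, and that of Yars in 1 of 16 cases, without CIX sample 4 of 4T1, with adjusted p-values between 8.08e-06 and 0.00199. At an adjusted p below 0.05 the difference in response was positive for 3 cytosolic members (Lars with 0.80, adjusted p = 0.00527, besides Vars and Yars) and 4 mitochondrial members (Cars2, Tars2, Fars2 and Vars2, between 0.55 and 0.81) and negative for 0, beside 15.1% of all genes higher and 14.2% lower. The median difference was 0.06 for the cytosolic, 0.09 for the mitochondrial members and -0.02 for all genes tested. The first 2 were 0.17 and 0.03 without CIX sample 4 of 4T1, 0.01 and 0.05 without CIX sample 2 of 67NR and 0.04 and 0.11 without vehicle sample 13 of 67NR. Tars2 in 67NR was at 59.5, 54.0, 55.5 and 50.7 CPM with vehicle and at 67.3, 73.3, 53.0 and 75.9 CPM with CIX, and its difference in response was 0.76 (SE 0.20, adjusted p = 0.0094). It had been lower in vehicle treated 4T1 than in 67NR (-1.03, SE 0.15, adjusted p = 0.000241) and was at -0.28 (SE 0.12, adjusted p = 0.0734) between the CIX treated lines. The rise of Tars2 with CIX in 4T1, its difference in response and its lower level under vehicle share the vehicle treated 4T1 samples.

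**Figure D5:**
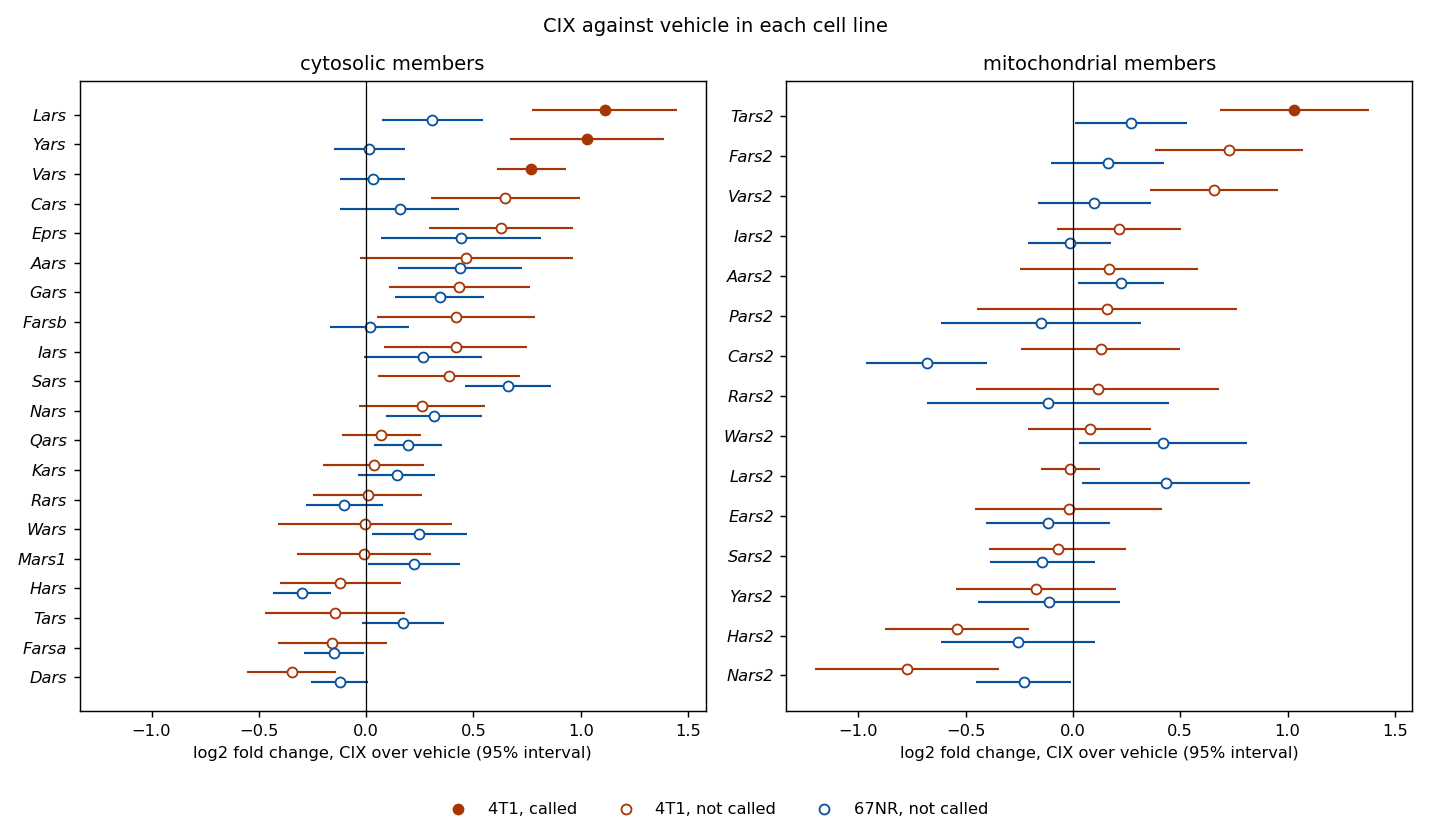
Log2 fold change of CIX over vehicle (x axis) for each of the 35 members tested (y axis), in 4T1 and in 67NR cells. Points are limma-voom estimates, lines their 95% intervals, and filled points passed an adjusted p of 0.001. The 4 filled points are Lars, Yars, Vars and Tars2 in 4T1, and no interval of Vars or Yars overlaps between the lines.

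The cytosolic and the mitochondrial enzyme for the same amino acid were set side by side between the vehicle treated lines. Of 17 such pairs, in which Eprs and Fars2 each enter 2, 16 could be tested, and 11 had log2 fold changes of opposite sign, whether or not these passed the test. Since 15 of 20 cytosolic members were positive and 9 of 15 mitochondrial members negative, members paired without regard to the amino acid would often differ in sign too. In the pairs of Eprs with Ears2 and of Tars with Tars2 both members were called, in opposite directions. Both were also called in the pair of Nars with Nars2, there in the same direction, higher in 4T1 (0.69 and 0.94). The difference within a pair was not tested. For glutamate, Eprs was at 1.18 and Ears2 at -1.45, and the ratio of their approximate TPM was 8.78 in vehicle treated 67NR and 54.4 in vehicle treated 4T1. For threonine, Tars was at 1.06 and Tars2 at -1.03, with a ratio of 2.33 in 67NR and 9.77 in 4T1. After CIX in 4T1 the ratio of Tars to Tars2 was 4.44 and that of Yars to Yars2 7.78, against 3.28 for Yars with vehicle. The leucine pair differed from the others in level, since Lars2 exceeded Lars in all groups (Lars over Lars2 0.0597 in vehicle treated and 0.129 in CIX treated 4T1). The histidine pair, Hars and Hars2, lies head to head on chromosome 18 with overlapping ends, 7.86% of the words of Hars being shared with the antisense strand, so that their values are uncertain without the use of strand. Hars2 was at 43.0, 39.9, 36.2 and 48.6 CPM in vehicle treated 67NR and at 16.9, 22.6, 21.7 and 24.7 CPM in vehicle treated 4T1, lower in all 4T1 samples (-0.96, SE 0.15, adjusted p = 0.000299).

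Other genes of tRNA charging and translation were taken from fixed lists. In 4T1 with CIX, where 5.32% of all genes were called higher and 3.95% lower, of 6 genes of tRNA editing and recycling 1 was called higher and 1 lower. The first was Aarsd1, which encodes an editing protein that clears serine from alanine tRNA, at 7.17, 5.40, 6.48 and 8.82 CPM with vehicle and 46.4, 36.9, 36.04 and 35.8 CPM with CIX. Its groups were far apart, with a log2 fold change of 2.44 (SE 0.18, adjusted p = 4.47e-05) in 4T1 against 0.23 (SE 0.11, adjusted p = 0.19) in 67NR and a difference of 2.20 (SE 0.22, adjusted p = 5.92e-06). The second was Prorsd1, a relative of prolyl-tRNA editing proteins, with a mean of 13.9 CPM with vehicle and 6.66 CPM with CIX (-1.11, SE 0.13, adjusted p = 0.000313). Its call held in 3 of 8 fits with 1 sample omitted (adjusted p up to 0.00174), that of Aarsd1 in all 8.

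Of the genes of tRNA end processing and export 1 of 6 was called higher in 4T1, beside 5.32% of all genes, Rpp30, a subunit of the RNase P that trims the 5′ end of tRNAs. It was at 4.74, 3.09, 4.06 and 3.89 CPM with vehicle and at 18.3, 17.2, 19.7 and 21.1 CPM with CIX, with a log2 fold change of 2.23 (SE 0.16, adjusted p = 4.47e-05) and a difference from 67NR of 2.61 (SE 0.18, adjusted p = 7.76e-07). Of 5 cytosolic elongation factors tested 1 was called higher, Eef1g (1.03, SE 0.10, adjusted p = 0.000106), a subunit of the exchange factor of the elongation factor that brings charged tRNA to the ribosome. Of 14 genes of the amino acid sensing kinases and eIF2, Eif2b3, a subunit of the eIF2B exchange factor, was called higher (1.54, SE 0.15, adjusted p = 0.000116) and Eif2ak2, the kinase PKR, lower (-0.98, SE 0.12, adjusted p = 0.000327). None of the 3 scaffold proteins, the 4 genes of the amidotransferase and formylation and the 10 mitochondrial translation factors was called in 4T1 after CIX. In the test of the difference in response Aarsd1, Rpp30, Eef1g, Eif2b3 and Tsfm, a mitochondrial elongation factor (0.96, SE 0.16, adjusted p = 0.000472), were called higher in 4T1 and no gene of these lists lower, beside 4.80% and 3.05% of all genes. Eif2ak2 in 4T1 was called in 3 of 8 fits with 1 sample omitted, and in the difference in response Eif2b3 in 2, Tsfm in 6 and Eef1g in 15 of 16. In 67NR 0 genes of these lists were called after CIX by limma-voom, beside 0.181% of all genes higher and 0.207% lower.

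Between the vehicle treated lines, where 20.4% of all genes were called higher and 19.6% lower, 1 of 4 genes of the amidotransferase and formylation was called higher in 4T1 (Qrsl1, 1.25) and 0 lower, and of the genes of tRNA editing and recycling Dtd1 and Dtd2 were higher and Aarsd1 was lower (-2.67). Of 6 genes of end processing and export 2 were higher (Trnt1 and Pop1) and 3 lower (Rpp30, -2.09, Elac2 and Xpot), of 5 cytosolic elongation factors 0 higher and 2 lower (Eef1g, -1.59, and Eef1d), and of 10 mitochondrial translation factors 4 higher and 1 lower (Mtrf1, 1.77, and Tsfm, -1.48, moved the most). Of 14 genes of the sensing kinases and eIF2, 5 were higher and 1 lower (Eif2ak2, 1.85, Eif2b3, -1.16, and Eif2b5, 0.97, moved the most). Without vehicle sample 13 of 67NR, the counts were 3 higher and 1 lower for the sensing kinases and eIF2 (Eif2ak4 and Eif2b1 were not called) and 1 higher and 2 lower for end processing and export (Pop1 and Elac2 were not called). They were then 3 higher and 1 lower for the mitochondrial translation factors (Mtif3 was not called). Aarsd1, Rpp30, Eef1g and Eif2b3 were thus lower in vehicle treated 4T1 than in 67NR and rose with CIX in 4T1, and these comparisons share the vehicle treated 4T1 samples.

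Of the 25 listed genes of the amino acid response 3 were called higher and 0 lower in 4T1 with CIX, beside 5.32% and 3.95% of all genes, and the median log2 fold change was 0.61. At an adjusted p below 0.05, 12 were higher and 0 lower in 4T1, beside 21.9% and 20.7% of all genes. The 3 called were Pycr1 (1.52, SE 0.19, adjusted p = 0.000322), Cth (1.47, SE 0.18, adjusted p = 0.000322) and Phgdh (0.75, SE 0.09, adjusted p = 0.000248), enzymes of proline, cysteine and serine synthesis, whose calls held in 2, 2 and 5 of 8 fits with 1 sample omitted. Without CIX sample 4 the count in 4T1 was 9 higher and 0 lower, among them Ddit3, Trib3, Chac1 and Asns. Asns, the asparagine synthetase, was at 127, 164, 156 and 181 CPM with vehicle and at 175, 299, 417 and 379.8 CPM with CIX, so that sample 4 lay within the vehicle range. In 67NR 0 of 22 were called after CIX, and 11 were higher and 0 lower at an adjusted p below 0.05, beside 8.50% and 9.25% of all genes, with a median of 0.45. Asns was at 99.3, 89.6, 85.7 and 101 CPM with vehicle and at 141, 136, 183 and 149 CPM with CIX in 67NR, where the groups were apart (0.68, SE 0.11, adjusted p = 0.00442). No gene of this list was called in the difference between the responses. Between the vehicle treated lines 10 of 22 were called higher and 2 lower in 4T1, beside 20.4% and 19.6% of all genes, and between the CIX treated lines 7 higher and 1 lower, beside 18.0% and 16.4%. The counts under vehicle were 8 and 2 without vehicle sample 13 of 67NR, where Phgdh and Cebpb were not called. Those under CIX were 11 and 0 without CIX sample 4 of 4T1 and 5 and 0 without CIX sample 2 of 67NR. The shares of all genes given here are those of the fits with all samples.

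The promoters of the synthetase genes were searched for TGATGNAA, the core of the C/EBP-ATF response element through which Atf4 acts, on both strands. Windows of 300 bases, 250 before and 50 after the start, came from RefSeq on GRCm38.p6. Of the 36 members 27 had a window, and Cars, Hars, Hars2, Lars, Nars, Pars2, Rars, Vars and Wars had none. The motif was found in 5 of 13 cytosolic and 0 of 14 mitochondrial members, and in 4.51% of all 27025 genes and 3.97% of all 32851 windows. Matches are shown, 1 for each of the 5 genes, because they mark the cytosolic genes that carry this element near the start, and the capitals mark the match, which reads TTNCATCA where it lies on the other strand.

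Aars, chr8:111033840-111033869, plus strand: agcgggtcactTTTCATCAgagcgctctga
Gars, chr6:55037960-55037989, plus strand: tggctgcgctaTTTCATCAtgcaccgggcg
Iars, chr13:49682126-49682155, plus strand: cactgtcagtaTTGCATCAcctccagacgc
Tars, chr15:11399655-11399684, minus strand: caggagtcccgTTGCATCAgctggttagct
Yars, chr4:129189895-129189924, plus strand: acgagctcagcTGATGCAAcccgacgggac

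The match in Gars began 30 bases and that in Tars 15 bases before the start. The match shown in Aars began at base 10, that in Iars at base 8 and that in Yars at base 4 after the start, counted from 1. With CIX in 4T1 the log2 fold changes of these 5 members were 0.47 for Aars, 0.43 for Gars, 0.42 for Iars, -0.15 for Tars and 1.03 for Yars, of which Yars was called. In 67NR they were 0.44, 0.34, 0.27, 0.17 and 0.02, of which none was called. A match of letters is a description of the window, and nothing was drawn from it about binding.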

How the data were processed

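RNA of 4T1 and 67NR cells, vehicle or CIX, 4 samples per group, had been sequenced from strand-specific mRNA libraries. The authors quantified transcripts with Salmon 0.12 on GRCm38, per the paper, and deposited estimated counts per gene, summed with tximport and without a filter. Nearly all counts are not whole, so that tximport may have scaled them by transcript length. The scaling is not given in the sources used here, and it would change what the approximate TPM values and class sums mean. The sample labels name GRCh38 among the builds. All 16 columns were mapped to samples by the number that their header shares with the sample title.

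The estimated counts were rounded. TPM was approximated from mean transcript lengths of the GENCODE annotation of GRCm38, and genes were left out where over 3 samples of a comparison had less than 1 TPM (for the difference in response, only if so in both lines). Counts were tested by limma-voom after TMM scaling (limma 3.58.1, edgeR 4.0.16, R 4.3.3) over all genes left. The limits of the filter, limma-voom and the adjusted p below 0.001 follow the study, while the approximate TPM in place of the study's own, a filter and a fit for each comparison and TMM were chosen here. edgeR's quasi-likelihood test and DESeq2 1.42.0, other scalings, filters and thresholds, all 16 samples in one fit and leaving out each sample were alternatives, and a block of consecutive sample numbers was added after seeing the data. The fits were tested on simulated data. Words of 31 bases shared between genes were counted.

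The members and lists (complex scaffold proteins, amidotransferase and formylation, tRNA editing and recycling, tRNA end processing and export, cytosolic elongation factors, mitochondrial translation factors, amino acid response, amino acid sensing kinases and eIF2, and epithelial, mesenchymal, leukocyte and endothelial markers) were chosen with earlier results of these data known. Values per sample were given for members called after CIX or in the difference in response, and for the 5 with the largest called difference between vehicle treated lines. Others (Cars, Sars, Cars2, Fars2, Hars2, Lars2, Ddit3, Asns) were named after their values were seen. At most 3 genes per list and comparison were described by value. Protein, tRNA charging and other measurements were not analysed here, and a few items are not reported here.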

Additional observations from a re-analysis of the deposited data

Results flagged for a closer look

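Of 36 groups of 4 samples, for 9 members with values per sample, 1 held a sample far from the others. Yars was at 102 CPM in sample 10 of the CIX treated 67NR cells beside 93.6 to 94.6 CPM in the other 3, a gap of 0.887 of the range of the group, more than the 95% critical value of Dixon's ratio for 4 samples. Chance puts about 1 in 20 such groups beyond that value. The response to CIX differed between 4T1 and 67NR for Vars by 0.74 on the log2 scale (adjusted p = 2.73e-05, limma-voom) and for Yars by 1.01 (adjusted p = 0.00065, limma-voom), higher in 4T1 in both.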

How the results depend on the processing

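Between CIX and vehicle in 4T1, 4 members were called. DESeq2 called 9 (3096 genes in all, against 1082), scaling by library size alone 2, a common fit of all 16 samples 8 (2688 genes) and a threshold of 0.05 gave 13 (4982 genes), and with 1 sample left out the count was 1 to 5 (268 to 972 genes), 5 without CIX sample 4. In 67NR the count of 0 became 3 with DESeq2 (1041 genes, against 45) and 5 at 0.05 (2057 genes), and was 0 in all fits with 1 sample left out (0 to 75 genes) while a common fit called 151 genes. In the difference in response, the count of 2 became 1 with no filter on low values and 7 at 0.05 (3700 genes), DESeq2 called 1981 genes against 993, and leaving out a sample gave 1 to 2 (654 to 1048 genes). Between the lines, a threshold of 0.05 gave 27 of the members under vehicle and 23 under CIX (7460 and 7002 genes, against 4424 and 3767), and leaving out a sample gave 11 to 15 and 10 to 18, where 18 was without CIX sample 4 of 4T1. The 17 members under vehicle became 11 without vehicle sample 7 of 4T1. With no filter the line comparison under CIX had 5751 genes called. Under the other alternatives each count of members was within 1.5 times. The called log2 fold changes of the 9 members with values per sample kept their sign under all alternatives, and Yars and Tars2 in 4T1 missed the threshold under scaling by library size alone (adjusted p = 0.00116 and 0.00124), Yars under DESeq2's size factors (0.00101) and Tars2 with edgeR (0.00132), while Yars in the difference in response missed it with no filter (0.00123). The summed mitochondrial level of 4T1 over 67NR under vehicle was 1.12 and 0.887 without Lars2, an alternative chosen after seeing the data, and that of CIX over vehicle in 4T1 was 0.971, 1.05 on CPM sums and 1.12 without Lars2. The cause was not tested. The groups share no replicate numbers, but the numbers run through the groups in 4 consecutive sets. The labels do not say that a set shares a day or culture, and deviations from the group means of samples in a set correlated over genes by -0.267 to 0.401. Between CIX and vehicle in 4T1 the correlations were 0.0611 to 0.401 within sets and -0.259 to 0.186 between sets. There 6 of 8 samples were closest to their own set. In 67NR the ranges were -0.0409 to 0.0712 and -0.0979 to 0.124, with 3 of 8 closest. Between the lines 2 of 8 under vehicle and 5 of 8 under CIX were closest to their own set. Whether samples of a set share more than their place in the numbering cannot be told from these values. A replicate block for these sets, added after seeing the data, gave 2 members in 4T1 after CIX, 0 in 67NR (0 genes), 2 in the difference in response, 8 between the vehicle treated and 12 between the CIX treated lines, and Tars2 and Yars in 4T1 (adjusted p = 0.00157 and 0.00137) and Vars between the vehicle treated lines (0.00314) missed the threshold. With 4 samples per group and a threshold of 0.001, members with smaller changes could be missed.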
